A study of Homo sapiens with 6 samples.

Results

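The RNA levels of 10 genes of iron handling and ferroptosis defence (TFRC, SLC11A2, FTH1, FTL, NCOA4, ACO1, IREB2, GPX4, AIFM2 and ACSL4) were compared between DLD-1 cells given TGF-β with TFA and DLD-1 cells given TGF-β alone. The genes were taken by name from the deposited expression table, where each has 1 row among 31016. DLD-1 is an established human colorectal adenocarcinoma line of epithelial cells. TGF-β is a growth factor that can push epithelial cells towards a mesenchymal state, and TFA is the total flavone extract of the plant Abelmoschus manihot. There were 3 libraries in the group with TGF-β alone (TGFb 1 to 3) and 3 in the group with TGF-β and TFA (TGFb_TFA 1 to 3). The sample labels give 24, 25 and 26 h of treatment for libraries 1, 2 and 3 of both groups, while the series' own design text gives 24 h of TGF-β before TFA. A dose was not given in the sources used here. All 6 libraries come from cells given TGF-β, so the values say nothing on what TGF-β itself did. Nothing in the labels says that the libraries of a group came from separate cultures, and p-values measure only the spread between these libraries.

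Cells take up iron bound to transferrin through the transferrin receptor, move it out of the endosome, and store what they do not use inside ferritin. A pair of iron regulatory proteins senses the iron that is free in the cytosol. When iron is scarce they bind a short hairpin, the iron-responsive element, which blocks translation of ferritin mRNA and protects transferrin receptor mRNA from decay. Ferroptosis is a form of cell death in which iron drives the peroxidation of membrane lipids, and its main brakes are a lipid peroxidase that uses glutathione and a second enzyme that regenerates lipid-soluble radical traps.

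Iron-responsive elements are shown first because mRNAs of both uptake and storage genes carry them. In ferritin mRNA they act on translation, which the RNA levels given here do not measure. The letters searched in the untranslated regions (UTRs) of all coding GENCODE 29 transcripts (GRCh38), on the transcript strand only, were CNNNNNCAGTGN followed by 5 bases able to pair with the 5 bases before the loop, with G-T pairs allowed. Capitals mark the unpaired C and the 6-base loop in each 30-base window, written 5′ to 3′.
FTH1, 5′ UTR, chr11:61967573-61967602, minus strand: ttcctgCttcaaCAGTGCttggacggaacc
FTL, 5′ UTR, chr19:48965335-48965364, plus strand: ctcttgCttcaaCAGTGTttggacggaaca
TFRC, 3′ UTR, chr3:196050978-196051007, minus strand: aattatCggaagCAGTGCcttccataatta
TFRC, 3′ UTR, chr3:196050574-196050603, minus strand: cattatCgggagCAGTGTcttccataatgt
TFRC, 3′ UTR, chr3:196050509-196050538, minus strand: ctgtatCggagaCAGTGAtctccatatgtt
TFRC, 3′ UTR, chr3:196050462-196050491, minus strand: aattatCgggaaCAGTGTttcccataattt

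Of the 10 genes, 3 held such a match, with 1 in FTH1, 1 in FTL and 4 in TFRC. The windows of the ferritin genes were the same at 26 of 30 bases, and those of FTH1 and the TFRC windows at 9 to 11 of 30. A match was found in the 5′ UTR of 0.189% of 19061 coding genes with a 5′ UTR and in the 3′ UTR of 0.674% of 19591 with a 3′ UTR. These letters were not found in the UTRs of the other genes in this annotation, and a match is a description of sequence, not evidence of binding. The lack of a match does not mean that a gene has no element, because elements that depart from these letters or pairs are missed. SLC11A2, which has isoforms with an element, had 0 matches.

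None of the 10 genes passed the test for a difference with TFA. All 10 were tested with edgeR's quasi-likelihood F-test, adjusted by Benjamini-Hochberg over 18265 genes, and 0 were called at an adjusted p under 0.05 (adjusted p = 0.9997 for each), where 0.0109% of all tested genes (2) were called. At an unadjusted p under 0.05 there were also 0 of 10, against 1.83% of all tested genes, and DESeq2 called 0 as well. The median log2 fold change (TGFb_TFA over TGFb) was 0.08 over the 10 genes and 0.01 over all tested genes, with 8 of the 10 fitted above 0. Groups did not overlap on the depth-scaled counts (CPM) in 1 of the 10 genes, ACO1, against 7.91% of all tested genes. The 95% intervals of all 10 lay within a 2-fold change either way, and those of 5 (FTH1, SLC11A2, NCOA4, IREB2 and AIFM2) within 1.5-fold.

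**Figure D1:**
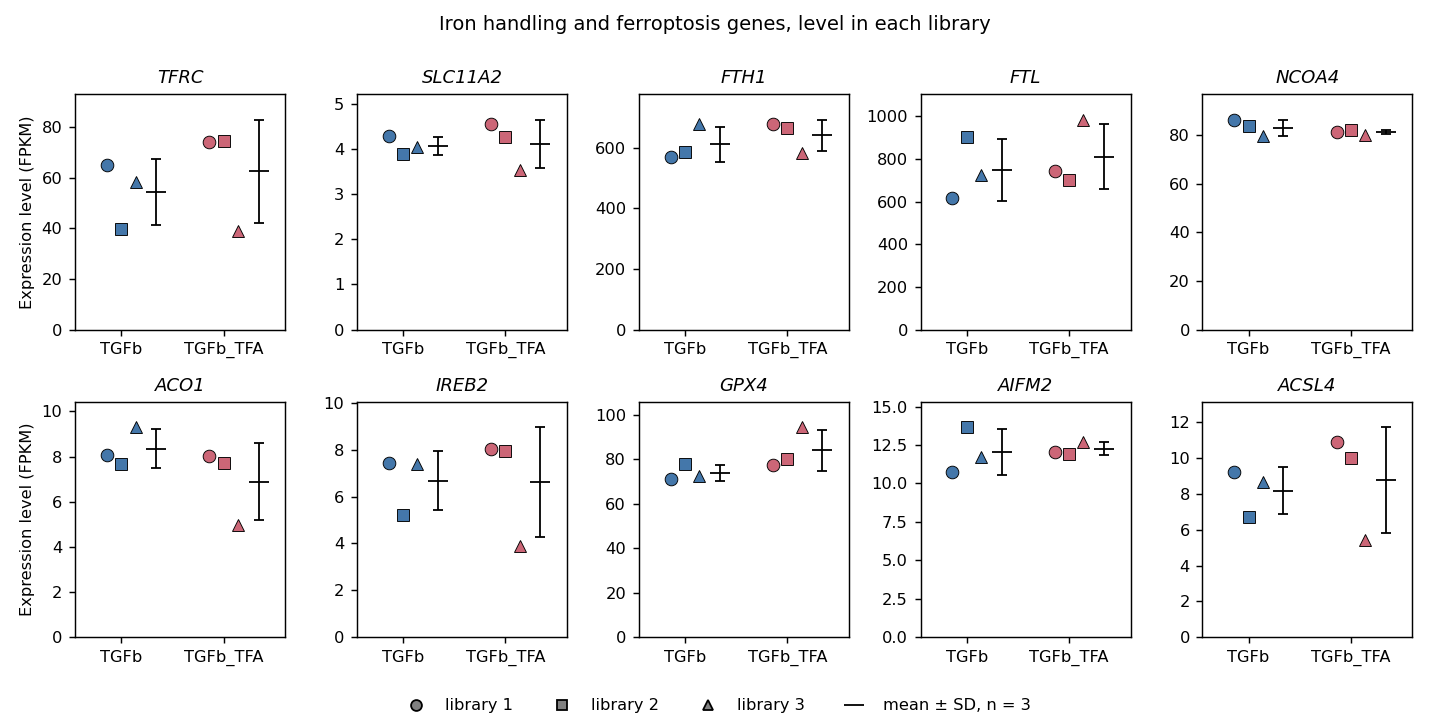
Expression level (FPKM, linear axes from 0) of each of the 10 genes in the 6 libraries; circles, squares and triangles are libraries 1, 2 and 3 of each group, and the bar is the mean with its SD (n = 3). In TFRC, IREB2 and ACSL4 the square of TGFb and the triangle of TGFb_TFA lie below the other libraries, and no gene shows groups that are apart in FPKM.

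On the FPKM scale, which corrects for transcript length, ferritin RNA stood far above the rest. FTL, the light chain of ferritin that aids mineralisation of the iron core, had a mean over the 6 libraries of 780.0 FPKM, and FTH1, the heavy chain with ferroxidase activity, had 627.1 FPKM. NCOA4, the receptor that carries ferritin to the lysosome, followed with 82.2 FPKM, then GPX4 (78.9) and TFRC (58.5). AIFM2 (12.1), ACSL4 (8.48), ACO1 (7.62), IREB2 (6.65) and SLC11A2 (4.09) were lower. The library ranges of FTL (620 to 986 FPKM) and FTH1 (571 to 679) overlapped, as did those of NCOA4 and GPX4 and of GPX4 and TFRC. FTH1 and NCOA4 did not overlap, and neither did TFRC and AIFM2. From AIFM2 down, each gene's range overlapped that of the next gene in this order. By mean FPKM, FTH1 stood at percentile 99.7 of all tested genes and SLC11A2 at 65.6.

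TFRC (ENSG00000072274, chromosome 3, 196027183 to 196082096, minus strand, GRCh38) encodes the transferrin receptor, the entry point for transferrin-bound iron. Its levels were 65.1, 39.8 and 58.2 FPKM in TGFb 1 to 3 and 74.2, 74.7 and 39.0 FPKM in TGFb_TFA 1 to 3. The highest libraries were TGFb_TFA 1 and 2, yet TGFb_TFA 3 was as low as TGFb 2, so the groups overlapped. The group means were 54.4 ± 13.1 and 62.6 ± 20.5 FPKM (SD, n = 3), with a log2 fold change of 0.21 (SE 0.25, 95% interval -0.36 to 0.78). Without TGFb_TFA 3 the log2 fold change of TFRC was 0.41 (interval -0.02 to 0.84), and without TGFb 2 it was 0.04.

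SLC11A2 (ENSG00000110911, chromosome 12, 50979401 to 51028566, minus strand) encodes DMT1, which carries ferrous iron across the apical membrane of enterocytes and out of endosomes. It had 4.28, 3.89 and 4.03 FPKM with TGF-β alone and 4.55, 4.27 and 3.52 FPKM with TFA added. In FPKM both the highest and the lowest library were TFA libraries, while in CPM the lowest was TGFb 2. The difference was small (log2 fold change 0.04, 95% interval -0.23 to 0.31). Its isoforms, with and without an iron-responsive element, are summed in 1 row of the table.

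FTH1 (ENSG00000167996, chromosome 11, 61959718 to 61967634, minus strand) had 571.0, 588 and 678 FPKM in TGFb 1 to 3 and 679, 665 and 583 FPKM in TGFb_TFA 1 to 3. In FPKM the ranges of the groups nearly coincided. The log2 fold change was 0.10 (SE 0.12, 95% interval -0.18 to 0.38). It was 0.04 without TGFb 1 and 0.13 without TGFb 3, the lowest and highest values of FTH1 when 1 library was left out. FTH1 shares 1267 exon bases with BEST1 on the other strand, which had a mean of 3.43 FPKM. The libraries kept strand, but no source used here says whether the counting used it.

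FTL (ENSG00000087086, chromosome 19, 48965309 to 48966879, plus strand) had 620, 904 and 723 FPKM with TGF-β alone and 744, 704 and 986 FPKM with TFA added. TGFb 2 and TGFb_TFA 3 were the highest of the 6, and the other libraries of both groups lay together. The log2 fold change was 0.16 (SE 0.23, 95% interval -0.38 to 0.71), and it was -0.10 (interval -0.49 to 0.29) without TGFb_TFA 3. The ratio of FTH1 to FTL in FPKM was 0.922, 0.650 and 0.937 in TGFb 1 to 3 and 0.912, 0.945 and 0.591 in TGFb_TFA 1 to 3, so 1 library of each group had relatively more light chain RNA. Both ferritin genes have many processed pseudogenes. The 14 rows named as FTH1 pseudogenes held 0.825% to 0.929% of the counts of FTH1 and those rows together, and the 4 rows of FTL pseudogenes 0.0906% to 0.181%. No source used here says how reads were shared between the copies, and levels of FTH1 and FTL carry that uncertainty. Summing each gene with its pseudogene rows left both uncalled (log2 fold change 0.10 for FTH1 and 0.16 for FTL).

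NCOA4 (ENSG00000266412, chromosome 10, 46005088 to 46030714, minus strand), the ferritin receptor, was the steadiest of the 10 genes in FPKM. It had 86.1, 83.9 and 79.6 FPKM with TGF-β alone and 81.5, 82.0 and 80.3 FPKM with TFA added, and its highest library was 1.08 times its lowest. In FPKM the 3 TFA libraries lay inside the range of the TGF-β libraries, while in CPM TGFb_TFA 3 was the highest (413.0, against 387.7 in TGFb 1). The log2 fold change of NCOA4 was 7e-04 (SE 0.12, 95% interval -0.28 to 0.29).

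The iron sensors ACO1 and IREB2 encode the iron regulatory proteins that bind the hairpins printed above. ACO1, which also serves as the cytosolic aconitase when it holds an iron-sulfur cluster (ENSG00000122729, chromosome 9, 32384603 to 32450836, plus strand), had 8.06, 7.67 and 9.30 FPKM with TGF-β alone. With TFA added ACO1 had 8.00, 7.72 and 4.95 FPKM. In FPKM the groups overlapped, and in CPM (67.2, 65.6 and 77.1 against 65.3, 62.7 and 47.2) every TFA library lay below every TGF-β library, although TGFb_TFA 1 and TGFb 2 were almost level. ACO1 had the most negative value of the 10 genes, with a log2 fold change of -0.26 (SE 0.16, 95% interval -0.64 to 0.12, unadjusted p = 0.147 and adjusted p = 0.9997 in edgeR's test). Without TGFb_TFA 3 it was -0.13 (interval -0.40 to 0.14).

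IREB2, the regulatory protein that is degraded when iron is plentiful (ENSG00000136381, chromosome 15, 78437431 to 78498209, plus strand), had 7.41, 5.24 and 7.41 FPKM with TGF-β alone and 8.01, 7.93 and 3.89 FPKM with TFA added. TGFb_TFA 3 and TGFb 2 were the lowest libraries, as for TFRC. The log2 fold change of IREB2 was -0.01 (95% interval -0.58 to 0.56), and 0.21 (interval -0.15 to 0.58) without TGFb_TFA 3. RNA levels of ACO1 and IREB2 do not measure how much of either protein was bound to RNA.

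GPX4 (ENSG00000167468, chromosome 19, 1103926 to 1106788, plus strand) encodes the selenium-containing peroxidase that reduces lipid hydroperoxides in membranes. Its levels were 70.9, 77.9 and 72.4 FPKM with TGF-β alone and 77.6, 80.1 and 94.5 FPKM with TFA added. TGFb_TFA 3 was the highest, and TGFb 2 lay within the range of the other TFA libraries, so the groups overlapped. The means were 73.7 ± 3.66 and 84.0 ± 9.11 FPKM (SD, n = 3), and the log2 fold change was 0.23 (SE 0.17, 95% interval -0.16 to 0.62). Without TGFb_TFA 3 it was 0.05 (interval -0.19 to 0.29).

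AIFM2 (ENSG00000042286, chromosome 10, 70098223 to 70132934, minus strand) encodes FSP1, which regenerates reduced coenzyme Q and so protects membranes without glutathione. It had 10.7, 13.7 and 11.7 FPKM with TGF-β alone and 12.1, 11.9 and 12.7 FPKM with TFA added. In FPKM all TFA libraries lay within the range of the TGF-β libraries. In CPM TGFb_TFA 3 was the highest (82.4, against 79.5 in TGFb 2). The log2 fold change was 0.06 (95% interval -0.31 to 0.43).

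ACSL4 (ENSG00000068366, chromosome X, 109624244 to 109733392, minus strand) encodes an acyl-CoA synthetase that loads polyunsaturated fatty acids for insertion into phospholipids, the lipids that peroxidise in ferroptosis. It had 9.22, 6.69 and 8.64 FPKM with TGF-β alone and 10.9, 10.01 and 5.40 FPKM with TFA added. The highest and the lowest library both belonged to the TFA group. The log2 fold change was 0.11 (95% interval -0.41 to 0.63), or 0.31 (interval -0.03 to 0.65) without TGFb_TFA 3. The ratio of ACSL4 to GPX4, the promoter of lipid peroxidation over its main brake, was 0.130, 0.0859 and 0.119 in TGFb 1 to 3 and 0.141, 0.125 and 0.0572 in TGFb_TFA 1 to 3, so the groups overlapped here as well.

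**Figure D2:**
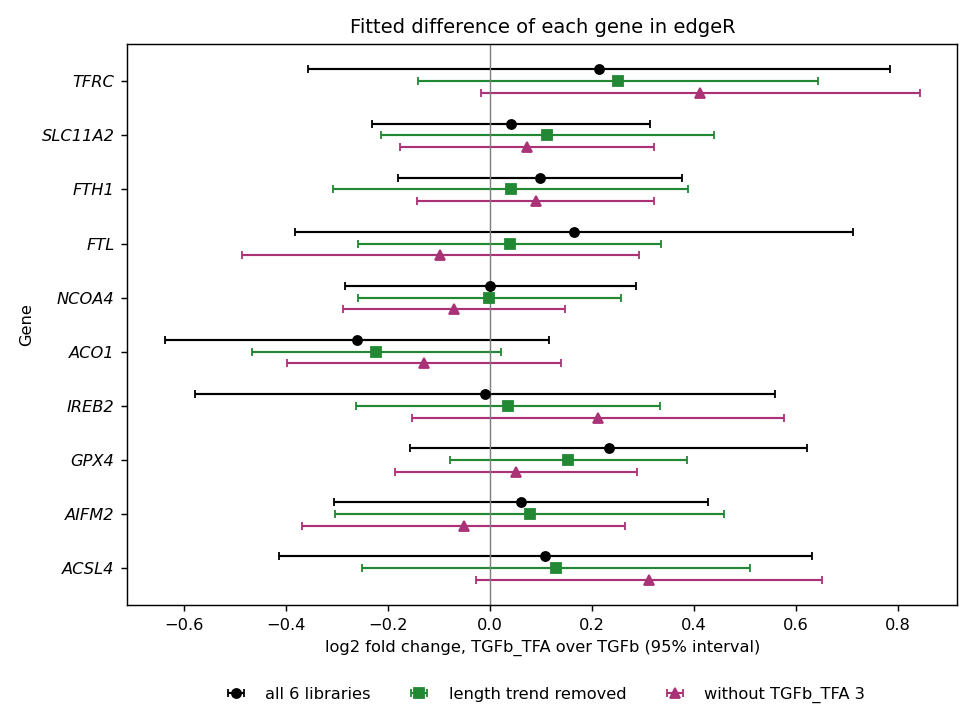
Fitted log2 fold change of TGFb_TFA over TGFb for each gene with its 95% interval in edgeR, from all 6 libraries (circles), with each library's trend along transcript length removed (squares) and without TGFb_TFA 3 (triangles). All intervals shown hold 0, and leaving out TGFb_TFA 3 moves TFRC, IREB2 and ACSL4 to the right and FTL and GPX4 to the left.

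In 7 of the 10 genes the difference between group means was smaller than the SD between libraries of a group (log2 CPM), and several genes shared their order of libraries. In CPM, TGFb 2 and TGFb_TFA 3 were the lowest of the 6 libraries for 3 genes (TFRC, IREB2 and ACSL4) and the highest for another 3 (FTL, GPX4 and AIFM2). The same was true of 21.4% and 17.6% of all tested genes. TGFb_TFA 3 was an extreme in 7 of the 10, against 58.4% of all tested genes, so this pattern is shared with the rest of the table. By effective transcript length (the ratio of count to FPKM) FTL stood at percentile 6.53 of tested genes, GPX4 at 18.8 and AIFM2 at 57.3, while ACSL4 stood at 70.7, TFRC at 79.4 and IREB2 at 90.8. In TGFb_TFA 3 the shortest 10% of genes had a median deviation of 0.37 from their mean over the libraries (log2 CPM) and the longest 10% one of -0.34. In that library FTL lay 0.52 above its mean and IREB2 at -0.56. FTH1, as short as GPX4 (percentile 18.6), lay only 0.06 above its mean there. AIFM2, near the middle of the lengths, lay 0.24 above its mean, and SLC11A2, at length percentile 88.4, lay at -0.04. Length therefore did not order all of the 10 genes. With each library's length trend removed, the intervals of FTL (-0.26 to 0.34) and IREB2 (-0.26 to 0.33) were narrower. Those of FTH1 (-0.31 to 0.39), SLC11A2 (-0.21 to 0.44) and AIFM2 (-0.30 to 0.46) were wider. ACO1 had -0.22 (interval -0.47 to 0.02), and no gene of the 10 was called. Whether RNA quality or library preparation lies behind the trend was not tested.

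**Figure D3:**
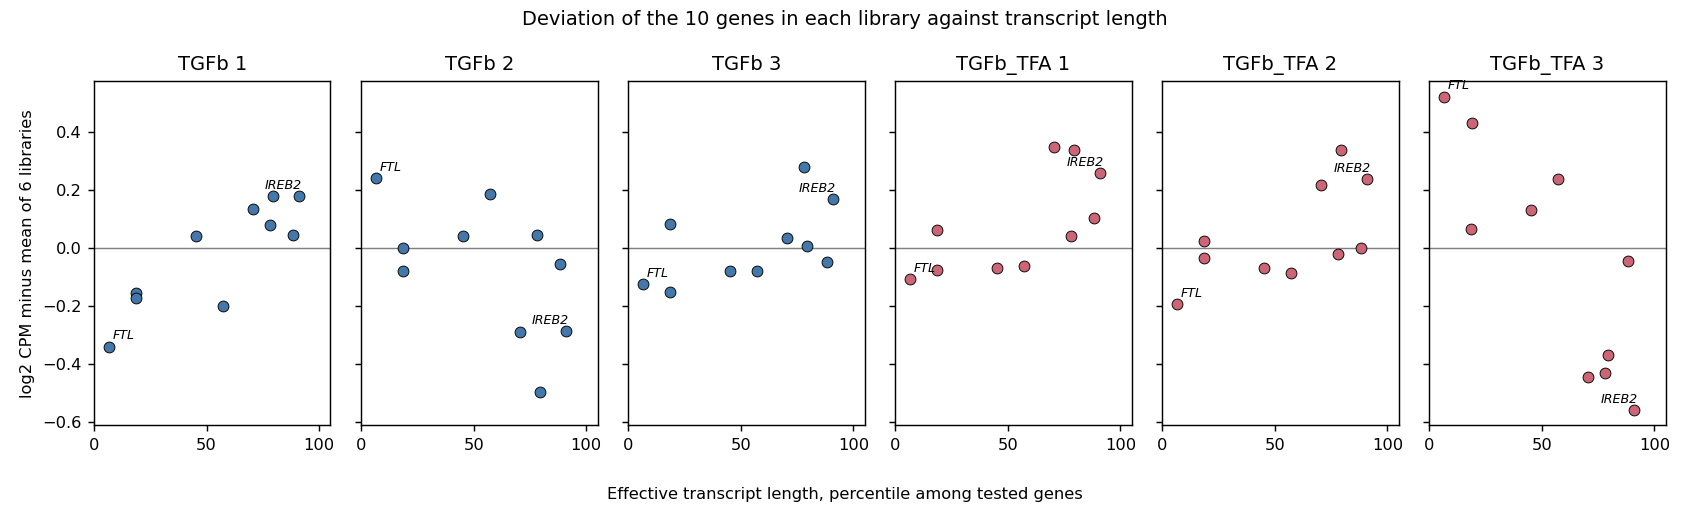
Deviation of each of the 10 genes from its mean over the 6 libraries (log2 CPM) against its effective transcript length, as a percentile among tested genes, with 1 panel a library and FTL and IREB2 named. In TGFb_TFA 3 FTL lies at 0.52 and IREB2 at -0.56, and TGFb 2 shows the same signs, whereas in the other 4 libraries FTL lies below 0 and IREB2 above.

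Without TGFb 1 and TGFb_TFA 3 together, the log2 fold changes of TFRC and ACSL4 were 0.55 (95% interval 0.14 to 0.95, unadjusted p = 0.0161) and 0.39 (interval 0.05 to 0.73, unadjusted p = 0.0310) in edgeR's quasi-likelihood test. Neither was called (adjusted p = 0.887 for both), and 4.41% of all tested genes had an unadjusted p under 0.05 in that fit. TGFb 2, where both genes were low, is then 1 of only 2 libraries with TGF-β alone.

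In 8 lists of iron and ferroptosis genes, which hold the 10 genes above as well as others of the same pathways, no gene was called over all genes tested. Iron uptake and reduction had 13 tested genes, with 0 higher and 1 lower at an unadjusted p under 0.05 (1.07% and 0.761% of all tested genes were higher and lower), and a median of -0.05, or -0.11 over the 11 that are not among the 10. The lower one was STEAP4, a metalloreductase, at 0.434, 0.384 and 0.538 FPKM against 0.391, 0.311 and 0.241 FPKM (log2 fold change -0.50, SE 0.21, unadjusted p = 0.0448 in edgeR's test). With limma on log2(FPKM + 0.5) without a filter STEAP4 had -0.23 (unadjusted p = 0.157), and with the replicate block edgeR gave an unadjusted p = 0.0969. The unadjusted p of STEAP4 was 0.0424 with the length trend removed in edgeR and 0.0300 with the DESeq2 Wald test. Without 1 library in turn the p of STEAP4 in edgeR's test was over 0.05 in 4 of 6 fits. LCN2, a secreted protein that binds iron-carrying siderophores and the most abundant of the list beside the 10 genes, had 78.0, 92.0 and 90.1 FPKM against 67.1, 61.2 and 74.8 FPKM. Its groups were apart in FPKM and overlapped in CPM, with a log2 fold change of -0.31 (95% interval -0.71 to 0.08).

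Storage and ferritinophagy had 7 tested genes with 0 at an unadjusted p under 0.05 and a median of -0.05, or -0.07 over the other 4. Of these PCBP1, a chaperone that hands iron to ferritin, had a log2 fold change of -0.07 (SE 0.13). Iron export had 4 tested genes with 0 at an unadjusted p under 0.05 and a median of -0.06. SLC40A1, the only known exporter of iron in mammals, was at 0.754 ± 0.216 FPKM and 0.726 ± 0.189 FPKM (SD, n = 3), well below TFRC and ferritin. Iron sensing had 7 tested genes, with 0 at an unadjusted p under 0.05 and a median of 0.05, or 0.06 over the other 5. There CPM did not overlap between groups in 3 genes, CIAO1 higher and ACO1 and CUL1 lower, where 4.58% and 3.33% of all tested genes were apart in those directions. CUL1, a scaffold of ubiquitin ligases such as the one that degrades IREB2, had -0.14 (SE 0.12).

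Heme synthesis, transport and breakdown had 17 tested genes and a median of 0.01. At an unadjusted p under 0.05, 1 was higher and 0 lower, against 1.07% and 0.761% of all tested genes. The higher one was CPOX, an oxidase of the heme pathway, with 63.2, 61.3 and 60.9 FPKM against 79.8, 80.7 and 61.6 FPKM (log2 fold change 0.28, SE 0.12, unadjusted p = 0.0415 in edgeR's test). The unadjusted p of CPOX was 0.0886 to 0.0915 with limma, 0.151 with the replicate block and 0.0625 with the length trend removed. With the DESeq2 Wald test it was 0.0129. Without 1 library in turn the p of CPOX in edgeR's test was over 0.05 in 5 of 6 fits and 0.00685 without TGFb_TFA 3. HMOX1, the inducible heme oxygenase that frees iron from heme, was named after its values were seen and had 0.11 (95% interval -0.38 to 0.60). Mitochondrial iron and iron-sulfur cluster genes had 16 tested members, 13 of them fitted above 0 and 0 at an unadjusted p under 0.05, with a median of 0.12. CISD1, a mitochondrial iron-sulfur protein, had 0.31 (95% interval -0.17 to 0.79).

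The ferroptosis defence list had 26 tested genes and a median of -0.02, or -0.05 over the other 24. At an unadjusted p under 0.05, 2 were higher and 0 lower, against 1.07% and 0.761% of all tested genes. GCLM, the modifier subunit of the enzyme that starts glutathione synthesis, had 5.35, 4.01 and 4.79 FPKM against 6.65, 6.52 and 5.23 FPKM (log2 fold change 0.41, SE 0.14). TXNRD1, a thioredoxin reductase that also contains selenium, had 99.3, 83.2 and 95.7 FPKM against 119, 114 and 101 FPKM (log2 fold change 0.29, SE 0.12). Neither passed over all genes (adjusted p = 0.9997 for each in edgeR's test). Their unadjusted p of 0.0206 and 0.0396 became 0.0512 to 0.0546 for GCLM and 0.0516 to 0.0561 for TXNRD1 with limma, and 0.0648 and 0.135 with the replicate block. With the length trend removed they were 0.00754 and 0.02285 in edgeR's test, and with the DESeq2 Wald test 0.00954 and 0.0143. Neither gene was called in those fits. Without 1 library in turn the p of GCLM was over 0.05 in 4 of 6 fits and that of TXNRD1 in 5 of 6. In CPM the groups were apart in 4 genes of the list, against 4.58% of all tested genes apart upwards and 3.33% downwards. GCLM, TXNRD1 and COQ2, an enzyme of coenzyme Q synthesis (log2 fold change 0.23, SE 0.14), were higher in every TFA library in CPM. In FPKM the groups of GCLM overlapped, with 5.35 in TGFb 1 and 5.23 in TGFb_TFA 3. DHODH, a mitochondrial enzyme that reduces coenzyme Q, was lower in every TFA library (log2 fold change -0.30, SE 0.15, unadjusted p = 0.0841). COQ2 and DHODH were named after their values were seen. HSPA5, the abundant chaperone of the endoplasmic reticulum, had -0.18 (SE 0.13). SLC7A11, the cystine importer that feeds glutathione synthesis, was named after its values were seen. It had 7.17, 3.71 and 5.98 FPKM against 9.76, 10.5 and 4.43 FPKM, low in the same libraries as TFRC, with a log2 fold change of 0.55 (95% interval -0.18 to 1.29). Its unadjusted p was 0.1203 in edgeR's test, 0.165 there with the replicate block, 0.220 to 0.264 with limma and 0.0880 with the DESeq2 Wald test. The log2 fold change of SLC7A11 was 0.34 without TGFb 2, 0.36 without TGFb_TFA 2, and 0.81 without TGFb_TFA 3 (unadjusted p = 0.3235, 0.3378 and 0.0104 in edgeR's test). It was 1.01 without TGFb 1 and TGFb_TFA 3 together (unadjusted p = 0.00250, adjusted p = 0.887 in edgeR's test). That fit leaves out the highest SLC7A11 library with TGF-β alone and the lowest with TFA added, so its p-value is no support for a difference. With the length trend removed the log2 fold change of SLC7A11 was 0.59 (unadjusted p = 0.0234 in edgeR's test), and the gene was not called. The list of genes that promote ferroptosis or lipid peroxidation had 23 tested members, 0 at an unadjusted p under 0.05 and a median of -0.0049, or -0.02 over the other 22. In CPM the groups of this list were apart upwards in 2 genes and downwards in 2, against 4.58% and 3.33% of all tested genes. The most abundant gene of this list beside the 10 was PEBP1, a scaffold that steers lipoxygenases to membrane lipids, at -0.15 (SE 0.15).

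**Figure D4:**
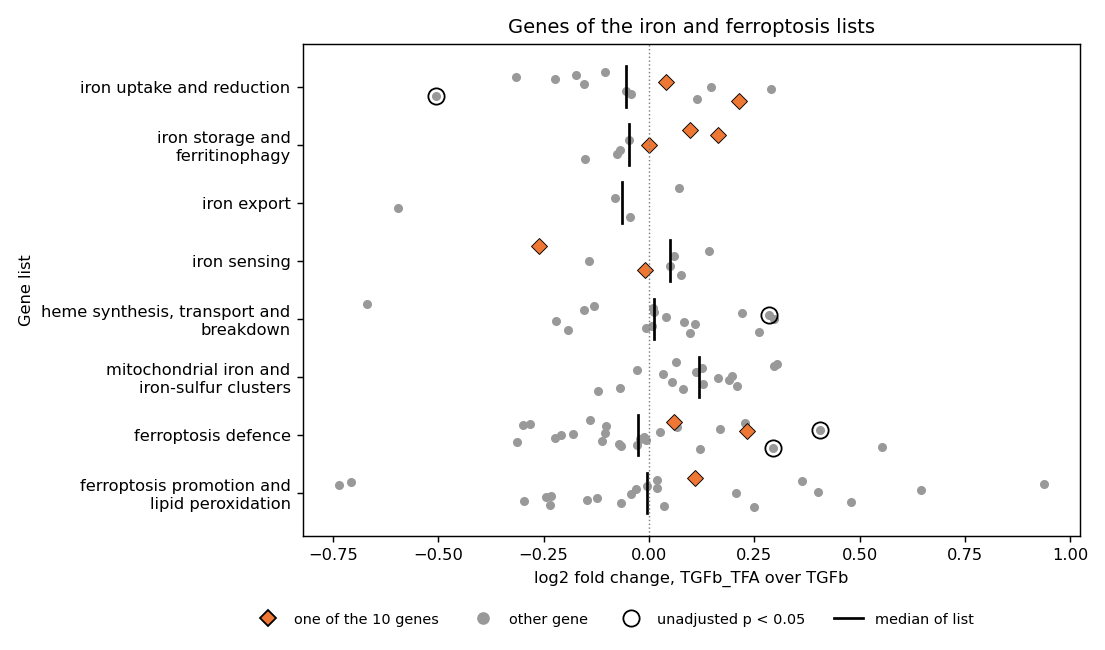
Fitted log2 fold change of TGFb_TFA over TGFb for every tested gene of 8 lists of iron and ferroptosis genes; diamonds are the 10 genes, rings mark an unadjusted p under 0.05 and bars are list medians, these genes included. The medians lie between -0.06 and 0.12, and the rings fall on STEAP4, CPOX, GCLM and TXNRD1.

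Of genes with the iron-responsive letters in a 5′ UTR, 27 were tested: 12 were fitted above 0 and 15 below, 0 had an unadjusted p under 0.05, and the median was -0.05. Of those with the letters in a 3′ UTR, 117 were tested, with 62 above 0 and 55 below, 0 at an unadjusted p under 0.05 and a median of 0.02. Over all tested genes 1.83% had an unadjusted p under 0.05 in edgeR's test. Besides the ferritin genes, SLC40A1 (-0.05, SE 0.26) was among the 5′ group, and was picked for its known role in iron metabolism.

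Library totals ran from 60361756 to 68745953 estimated counts, with 23096 to 24159 genes above 0. Of 12 markers of intestinal epithelium 11 were tested (median log2 fold change -0.03), and CDX1 had no row. In the group means KRT18 was at 770.1 and 680.1 FPKM and EPCAM at 204.8 and 196.0 FPKM, while LGALS4, VIL1 and GPA33 were under 0.3 FPKM. Markers of other cell types were at trace level. Fibroblast markers summed to 0.0630 to 0.367 FPKM with TGF-β alone and 0.448 to 2.37 FPKM with TFA added. Of these, 6 of 10 were tested and all 6 were fitted above 0. COL6A3, COL1A1 and COL1A2, 3 of the 6, were higher at an unadjusted p under 0.05, against 1.07% of all tested genes. The count filter needs reads in as many libraries as a group holds. COL6A3 was listed at 0 FPKM in TGFb 2 and COL1A2 in TGFb 1, so neither could be kept through the TGF-β libraries alone. Counts of tested markers fitted above 0, or higher, are therefore no support for a shift. The unadjusted p of COL6A3, COL1A1 and COL1A2 in edgeR's test was 0.00972, 0.0210 and 0.0420, with an adjusted p of 0.9997 for each. COL3A1, DCN, LUM and POSTN were listed at 0 in all 3 TGFb libraries and in TGFb_TFA 1, LUM also in TGFb_TFA 2 and POSTN in TGFb_TFA 3. Endothelial markers summed to 1.55 to 1.99 and 2.04 to 2.38 FPKM (6 tested, 5 above 0, CLDN5 below at -0.76, EGFL7 the most abundant), with 0 at an unadjusted p under 0.05. KDR and VWF were listed at 0 FPKM in TGFb 1, so the same limit holds for them. The sums of haematopoietic markers overlapped, at 0.615 to 0.879 and 0.873 to 1.24 FPKM. PTPRC and CD3E had no row, 4 were tested and 3 were above 0, with CD68 below at -0.22. CD14 was the most abundant, and 0 had an unadjusted p under 0.05. The part of these other cell types in the values of the 10 genes was not tested. In bulk RNA, a change in the mix of cells and a change of RNA per cell cannot be told apart.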

How the data were processed

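Poly(A) RNA of 6 libraries was sequenced with strand kept by dUTP and with molecular identifiers in the adapters, per the labels' protocols; no source used here says whether these served to remove duplicates. Tools listed without a role in the submitters' processing notes are StringTie 1.3.4d, HISAT2 2.0.4 and cutadapt 1.9, with the build GRCh38. The authors deposited FPKM values and whole-number estimated counts per gene and library, per the file headers; the counts may be derived from coverage, so their totals may overstate fragments. FPKM is scaled by length and by library and shows no depth.

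Estimated counts were fitted in edgeR 4.0.16 (R 4.3.3) over the whole table: filterByExpr, TMM scaling, group as the only term, glmQLFTest (2-sided), Benjamini-Hochberg adjustment. The SE is the absolute log2 fold change over the root of F. The procedure was tested on simulated data. Alternatives were limma 3.58.1 on log2(FPKM + 0.5), the DESeq2 1.42.0 Wald test, other filters and scalings, a length correction, a replicate block and leaving out libraries. The members, lists and alternatives were chosen with earlier results of these data known. Genes named were the 10 members, list genes at an unadjusted p under 0.05 and each list's most abundant other gene, plus CIAO1 and others said to be named after their values were seen.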

Additional observations from a re-analysis of the deposited data

How the results depend on the processing

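No gene of the 10 was called in any of the alternatives run (18 for each gene, and a sum with pseudogenes for FTH1 and FTL). Over all genes the number called was 2, and 13 with DESeq2's Wald test, 1 with limma on log2(FPKM + 0.5) without a filter, and 1 to 3 without 1 library in turn. With the replicate number as a block it was 1. Same-numbered libraries had residual correlations of 0.101, -0.349 and -0.327 across genes, against 0.478 for TGFb 2 and TGFb_TFA 3. Residuals from a mean of 3 libraries are tied to each other, so these values cannot show whether same-numbered libraries were pairs. The main fit took group as the only term. The median log2 fold change of the 10 genes was 0.08. It was 0.039, 0.040 and 0.039 with limma at pseudocounts of 0.5, 0.1 and 1, 0.039 without a filter, 0.016 without TGFb 1 and TGFb_TFA 3 together, and 0.033 (without TGFb 2) to 0.063 without 1 library.

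Of 182 alternative values of single genes 156 kept their sign and 26 did not. Those of NCOA4 were -0.0078 without a filter, -0.0327, -0.0328, -0.0325 and -0.0327 with limma (pseudocounts 0.5, 0.1 and 1, and 0.5 without a filter), -9e-04 with the length trend removed, -0.0014 with the replicate block and -0.063 without TGFb 1 and TGFb_TFA 3. Those of IREB2 were 0.0011 at a mean FPKM of at least 1, 0.036 with the length trend removed and 0.28 without both libraries. Without both, FTL had -0.24 and AIFM2 -0.15. Without 1 library in turn the ranges were -0.10 to 0.34 for FTL, -0.15 to 0.21 for IREB2, -0.071 to 0.023 for NCOA4, -0.056 to 0.31 for ACSL4, -0.052 to 0.18 for AIFM2 and -0.012 to 0.072 for SLC11A2. The cause of these changes was not tested. With 3 libraries a group, the widths of the intervals set what could be seen.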
